A study of Mus musculus with 12 samples.

Results

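ATF4 is the transcription factor of the integrated stress response. When amino acids run short, the kinase GCN2 phosphorylates the initiation factor eIF2alpha, general translation slows, and ATF4 protein is made more efficiently from its own messenger RNA. ATF4 then raises transcription of genes that make, import or charge amino acids, and it shares its sites with C/EBP proteins. The genes described here are 34 listed ATF4 targets and serine and amino acid genes, out of 21853 genes in the deposited table of RNA levels. All 34 had an identifier in the table. The list was drawn up from pathway knowledge, and Asns, for which it is named, was selected on its measured FPKM in TBI against control, where it was higher in irradiated mice. The difference between those groups is therefore given as a description, with no p, and nothing is read from counts in it.

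The RNA came from whole bone marrow of mice labelled B6, taken at day 14. Control mice had no total body irradiation (TBI). TBI mice received 5 Gy of gamma rays at 0.66 Gy/min and 100 µL of olive oil as vehicle by gavage. TBI+DEIX mice received the same irradiation and DEIX at 25 mg/kg by mouth every day, and DEIX mice received DEIX with no irradiation. The title names deinoxanthin, a carotenoid, as the supplement. The labels give no vehicle for the control mice, so gavage and vehicle cannot be told apart from irradiation in TBI against control. Nor can dosing by mouth be told apart from DEIX in DEIX against control, or from the treatments in TBI+DEIX against control. Each of the 4 groups had 3 libraries. Nothing in the labels says that these came from separate mice, so p-values measure the spread between libraries, which may be technical. Age and sex are not given in the labels used here.

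Levels are FPKM, which scale fragments by transcript length and by the library's total. They summed to between 493683 and 848843 per library. Read depth is not given; steps in the low values put the worth of 1 read, relative to control replicate 1, between 0.876 and 2.35, with the highest value in TBI+DEIX replicate 1. That worth was not well determined in several libraries, the best solution in this one scoring only 1.08 times the next. Erythroid, promyelocyte and maturing neutrophil marker lists, the main lineages of marrow, were detected in all libraries. Of the neutrophil markers, Ngp was listed at 0 in 5 libraries, S100a9 in 4 and S100a8 in 2.

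TBI+DEIX replicate 1 stood apart. It held the highest or the lowest value of the 12 libraries for 16 of the 30 members tested (53.3%), beside 52.8% of all tested genes. The members did not move one way in it: 7 were at their highest and 9 at their lowest. The tRNA synthetases Gars (92.9 FPKM, against 38.4 to 65.0 elsewhere), Nars (77.6, against 40.6 to 55.5) and Aars (41.6, against 17.3 to 32.6) were at their highest there, and so was the leucine importer Slc7a5 (59.6, against 16.7 to 32.4). Atf3 (0.217 FPKM, against 1.31 to 2.40), Cebpg (12.1, against 21.7 to 26.9) and Chac1 (2.33, against 2.86 to 7.33) were at their lowest. The median within-group SD of the members' log2(FPKM + 1) was 0.388 in TBI+DEIX, 0.0705 in control, 0.181 in TBI and 0.185 in DEIX.

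**Figure D1:**
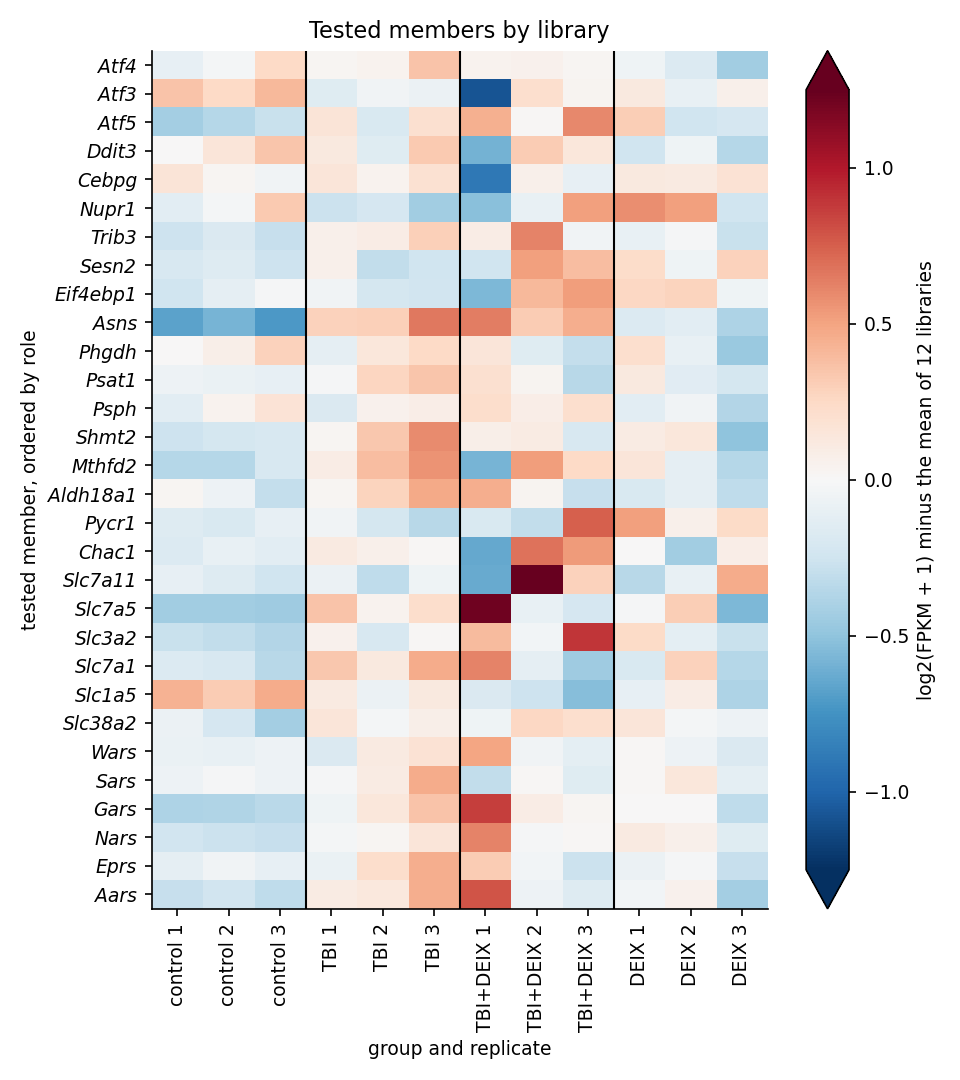
Each tested member (rows, ordered by role) in each library (columns). Colour is log2(FPKM + 1) minus the member's mean over 12 libraries, with red above and blue below the mean; arrows on the scale mark values beyond it. Asns is blue in the 3 control libraries and red in the 6 irradiated ones, and TBI+DEIX replicate 1 holds extremes in both directions.

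ATF4 with C/EBP proteins is known to bind a composite element, searched here as TGATGNAA (8 letters, either strand; N is any base) in RefSeq promoter windows of the GRCm38.p6 build, from 250 bases before to 50 after a gene's start. Windows were found for 28 of the 34 members. The element was in 10 of these 28 members (10 of 32 windows, 31.2%) and in 1304 of all 32851 windows (3.97%). Its narrower form TGATGCAA, contained in the first, was in 7 members and in 0.895% of all windows. These shares are a description with no test, since the members were listed from pathway knowledge of ATF4 targets. The stretch around the element is printed for 8 members that hold it before the start, on the gene's strand, 5′ to 3′, with the element in capitals. The likeness of the capitals is set by the search. Stretches over an annotated exon were kept to 30 bases.
Asns, chr6:7693214-7693243, minus strand: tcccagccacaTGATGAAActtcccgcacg
Slc7a11, chr3:50443631-50443701, minus strand: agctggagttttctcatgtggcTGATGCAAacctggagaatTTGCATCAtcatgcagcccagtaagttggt
Chac1, chr2:119351027-119351078, plus strand: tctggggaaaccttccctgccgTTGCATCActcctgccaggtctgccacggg
Atf3, chr1:191183414-191183465, minus strand: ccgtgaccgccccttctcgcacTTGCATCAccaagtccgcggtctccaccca
Gars, chr6:55037949-55038000, plus strand: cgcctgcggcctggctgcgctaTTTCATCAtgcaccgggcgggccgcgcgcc
Pycr1, chr11:120643822-120643873, minus strand: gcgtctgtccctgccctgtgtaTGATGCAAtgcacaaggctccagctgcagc
Nupr1, chr7:126625562-126625591, minus strand: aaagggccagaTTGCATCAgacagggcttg
Vldlr, chr19:27216809-27216838, plus strand: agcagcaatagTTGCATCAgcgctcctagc

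The Asns element starts 23 bases before the RefSeq start. GENCODE vM21 begins the gene further upstream, so the same bases lie in an annotated exon there, outside the coding sequence. Slc7a11 holds 2 copies, starting 66 and 47 bases before its start. The Gars element starts 30 bases before and the Chac1 element 193 bases before, both between genes in GENCODE, as is the Pycr1 element 103 bases before. The Atf3 element, 110 bases before, lies in an intron. The elements of Nupr1 and Vldlr, starting 110 and 200 bases before, lie in annotated exons outside the coding sequence. Trib3 holds its element after the RefSeq start, at base 14. GENCODE begins the gene further downstream, so these bases lie between genes there. A match describes letters in a window and says nothing of binding in marrow.

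Asns, asparagine synthetase, makes asparagine from aspartate and glutamine. It is gene ENSMUSG00000029752.12 on chromosome 6, from 7675169 to 7693254 on the minus strand. Its level in the control libraries was 30.8, 32.9 and 29.7 FPKM. The TBI libraries held 60.9, 61.2 and 79.2 FPKM. The TBI+DEIX libraries held 78.0, 62.3 and 68.4 FPKM, and the DEIX libraries 44.0, 45.1 and 37.6. All 6 irradiated libraries lay above all 6 unirradiated ones, the lowest irradiated value being 60.9 and the highest unirradiated one 45.1. Of 10994 tested genes, 2.93% separated these libraries without overlap in either direction, 85 higher and 237 lower in irradiated mice. Asns did so and the other 29 tested members did not, but the TBI and control values on which Asns was selected are part of this separation, so nothing is read from it. In order, the group means were 31.1 ± 1.61 in control, 42.2 ± 4.07 in DEIX, 67.1 ± 10.5 in TBI and 69.5 ± 7.89 FPKM in TBI+DEIX (SD, n = 3), and TBI and TBI+DEIX overlapped.

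**Figure D2:**
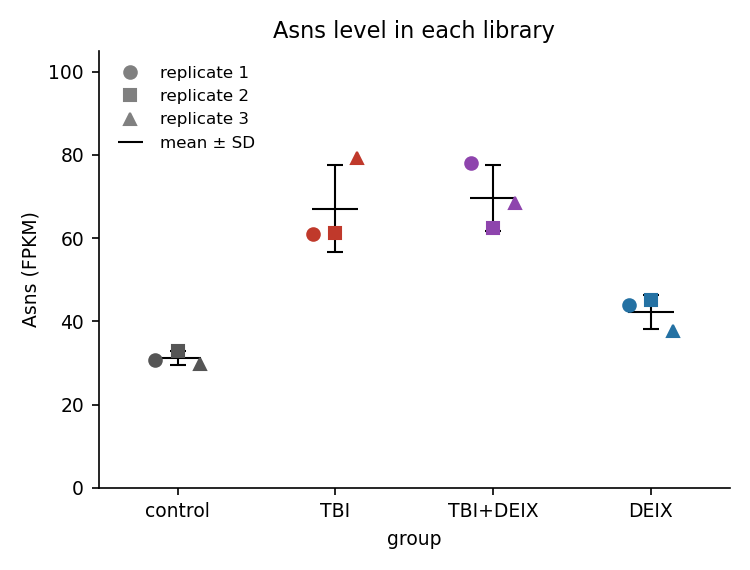
Asns level in FPKM (vertical axis) in the 12 libraries of the 4 groups; symbols mark replicate numbers and black bars the mean ± SD of 3 libraries. TBI and TBI+DEIX libraries lie between 60.9 and 79.2 FPKM, control and DEIX libraries between 29.7 and 45.1.

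Irradiation in DEIX-treated mice, TBI+DEIX against DEIX, compares 6 libraries that TBI against control does not use. The test takes its spread from all 12 libraries, the TBI and control libraries included. Asns rose 1.65-fold in mean FPKM, a difference of 0.71 in log2(FPKM + 1) with an SE of 0.13 and a 95% interval from 0.43 to 0.99. Its adjusted p was 0.0191 (limma, Benjamini-Hochberg over all 10994 tested genes), and it was higher in 3 of 3 libraries. It stood 23rd by p among the 89 genes called higher. Called means an adjusted p under 0.05. Asns was the only one of 30 tested members called (3.33%), against 2.57% of all tested genes.

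The size of the Asns difference ran from 0.62 to 0.78 over 21 other settings, while its adjusted p ran from 0.00883 to 0.182. The call was lost without DEIX replicate 2 (0.0509) or DEIX replicate 3 (0.0801), on the TPM scale (0.126), on that scale without S100a8, S100a9 and Ngp (0.128), and with only these 6 libraries in the fit. That last fit called 0 genes of the whole table (limma; 1035 at an unadjusted p under 0.05) and gave Asns an unadjusted p of 0.00135 and an adjusted p of 0.182. Without TBI+DEIX replicate 1 the Asns difference was 0.62 and the adjusted p 0.0191.

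The other 29 tested members had differences from -0.45 (Cebpg) to 0.47 (Slc3a2) in TBI+DEIX against DEIX, with a median of 0.18 beside 0.02 over all tested genes. By limma 0 of the 29 were called. An unadjusted p under 0.05 was found for 3 of them, beside 1780 of the 10994 tested genes. Of the 29, 22 were above 0. For 20 of them the whole 95% interval lay under the Asns estimate of 0.71, a count that leaves out the error of that estimate. Their intervals ran as low as -0.90 and as high as 1.11. Groups did not overlap for 5 of 30 members (16.7%), beside 17.7% of all tested genes: Asns, Atf4, Psph and Gars were higher and Cebpg lower. Psph, the phosphatase that completes serine synthesis, was at 5.27, 5.65 and 4.29 FPKM in DEIX and at 6.99, 6.22 and 6.92 in TBI+DEIX. Its log2 difference was 0.35 (SE 0.12, limma adjusted p 0.187), short of the threshold.

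**Figure D3:**
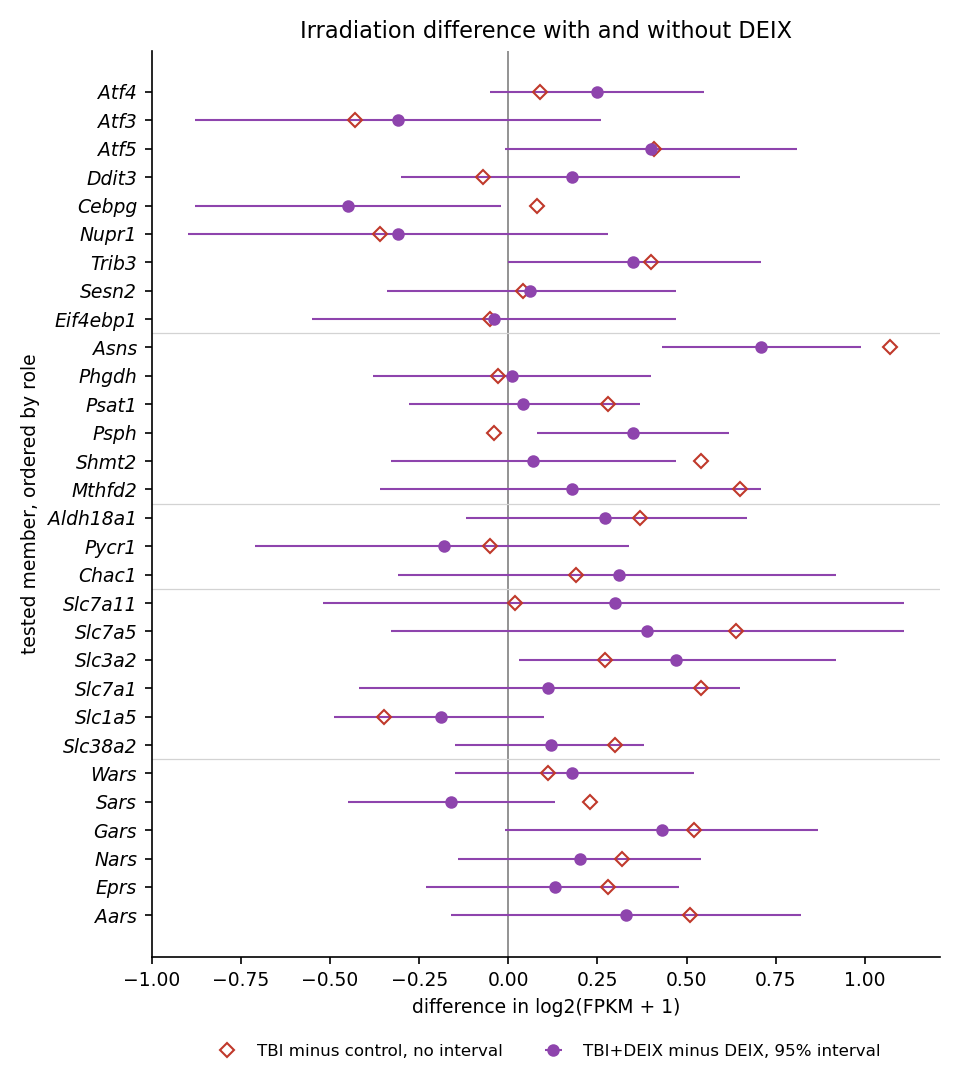
Difference in log2(FPKM + 1) (horizontal axis) for the 30 tested members, ordered by role and separated by grey lines. Filled circles give TBI+DEIX minus DEIX with 95% intervals and open diamonds TBI minus control without an interval; Asns lies furthest right for both, at 0.71 and 1.07.

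In TBI against control, the contrast from which Asns was named, its mean FPKM was 2.16-fold that of control and its log2 difference 1.07. The other 29 tested members ran from -0.43 (Atf3) to 0.65 (Mthfd2), with a median of 0.23 beside 0.05 for all tested genes. The call rule took in 1 of the 30, the gene chosen on this contrast, beside 3.99% of tested genes. That count was fixed by the choice, and nothing is read from it. TBI and control libraries did not overlap for 18 of the 30, 15 higher and 3 lower in TBI, beside 38.2% of tested genes. Mthfd2, the mitochondrial folate enzyme, held 21.4, 21.3 and 24.0 FPKM in control and 29.5, 36.4 and 41.2 in TBI. With DEIX it held 18.2, 40.1 and 33.1 FPKM in irradiated mice and 30.7, 25.5 and 21.2 in unirradiated ones. TBI stood clear of control for Mthfd2, while TBI+DEIX spanned DEIX on both sides. The library below the DEIX range was TBI+DEIX replicate 1, and replicates 2 and 3 lay above the highest DEIX value.

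The interaction term sets the irradiation difference with DEIX against that without it. For Asns the term was -0.37 in log2, the difference being 1.07 without DEIX and 0.71 with it. The term holds the TBI against control value for which Asns was named. No interval or p is therefore given, and nothing is read from its sign or size. Of the other 29 tested members 0 were called by limma, beside 0.200% of tested genes. An unadjusted p under 0.05 was found for 1 of them, beside 825 of the 10994 tested genes.

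DEIX in irradiated mice, TBI+DEIX against TBI, shares the TBI libraries with the contrast that pointed to Asns. Asns differed by 0.06 in log2, and no interval or call is given for it. Of the other 29 tested members 0 were called by limma, beside 8.10% of tested genes. An unadjusted p under 0.05 was found for 4 of them, beside 2986 of the 10994 tested genes. All 30 tested members ran from -0.44 (Cebpg) to 0.47 (Slc3a2), 16 above 0 and 14 below. Without TBI+DEIX replicate 1 the count was 6, namely Chac1, Eif4ebp1, Sesn2, Slc1a5, Slc7a1 and Slc7a11, beside 25.8% of tested genes. Without TBI+DEIX replicate 2 it was 1, Slc3a2, beside 8.70%.

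DEIX in unirradiated mice, DEIX against control, shares the control libraries. Of the 29 tested members besides Asns 1 was called (3.45%), beside 7.24% of tested genes. That was Slc1a5, the importer of glutamine and other neutral amino acids, which fell. Asns lay above control in 3 of 3 DEIX libraries, at a log2 difference of 0.42, and 0.28 on the TPM scale. The control libraries are among the values on which Asns was selected, so no call is given for it here.

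Slc1a5 was the only member called lower against control in both DEIX groups. Atf3 also lay below control in both without overlap, but was not called in the model used here. Slc1a5 held 65.7, 60.7 and 66.7 FPKM in control. The DEIX libraries held 44.9, 51.6 and 36.7, the TBI+DEIX libraries 42.6, 40.0 and 33.2, and the TBI libraries 52.3, 45.9 and 52.5. No library of the other groups reached the lowest control value. In DEIX against control its log2 difference was -0.54 (SE 0.13, limma adjusted p 0.0366). It lost that call under 9 of 21 other settings, among them leaving out any control library, DEIX replicate 1 or DEIX replicate 3, with values from -0.69 to -0.41. Its difference from control in TBI+DEIX was -0.73 (SE 0.13, limma adjusted p 0.00271), and the call held under the same 21 settings. The change from TBI to TBI+DEIX, -0.38, was not called (adjusted p 0.102).

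TBI+DEIX against control compares irradiation and DEIX together with neither. It called 7 of 30 members (23.3%), beside 30.0% of tested genes, 6 higher and 1 lower. Leaving aside Asns, whose control values were part of its choice, it called 6 of 29 (20.7%). The count was 13 without TBI+DEIX replicate 1 (38.5% of all genes), 2 without control replicate 2 (18.2%), 3 without control replicate 3 (20.1%) and 4 without control replicate 1 (20.9%). Asns was 2.23-fold its control mean, with a log2 difference of 1.13. The other rises were in carriers, synthetases and Atf5.

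Slc3a2, the heavy chain that pairs with Slc7a5 and Slc7a11 at the cell surface, held 41.3, 40.4 and 39.0 FPKM in control and 67.2, 49.5 and 94.5 in TBI+DEIX. Its TBI libraries held 52.2, 43.9 and 50.9, and its DEIX libraries 59.9, 46.6 and 41.5. It rose by 0.74 in TBI+DEIX (SE 0.20, limma adjusted p 0.0184) and lost the call with only the 6 libraries compared and without control replicate 2, control replicate 3 or TBI+DEIX replicate 3. Slc38a2, a sodium-coupled neutral amino acid carrier, held 78.3, 71.3 and 61.3 FPKM in control and 79.7, 99.0 and 95.4 in TBI+DEIX, with 91.4, 81.2 and 86.4 in TBI. Its DEIX libraries held 91.8, 80.9 and 79.1, so the 3 groups overlapped each other and lay above control. It rose by 0.37 in TBI+DEIX (SE 0.12, limma adjusted p 0.0376) and kept the call in 11 of 21 other settings. The light chain Slc7a5 held 18.2 to 18.3 FPKM in control and 59.6, 23.4 and 21.4 in TBI+DEIX, with replicate 1 far above the others. Slc7a11, the cystine importer, held 2.03 to 2.38 FPKM in control and 1.33, 7.63 and 3.42 in TBI+DEIX, with replicate 2 above the others. Neither was called. Slc7a1, the arginine and lysine importer, lay between 8.43 and 18.6 FPKM and was not called in the contrasts tested.

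Gars and Nars, which charge glycine and asparagine onto their transfer RNAs, rose by 0.69 and 0.48 in TBI+DEIX against control (limma adjusted p 0.0239 and 0.0371). Gars held 38.4, 38.7 and 39.8 FPKM in control and 92.9, 53.7 and 51.4 in TBI+DEIX. Its TBI libraries held 49.0, 55.8 and 65.0 FPKM and its DEIX libraries 50.4, 50.6 and 40.3. Every library outside control lay above every control library for Gars. Nars held 42.3, 41.3 and 40.6 FPKM in control and 77.6, 49.6 and 50.5 in TBI+DEIX. Its TBI libraries held 49.5, 50.9 and 55.5, and its DEIX libraries 54.2, 52.3 and 45.0, all above control. Gars lost its call when any 1 control library was left out, and Nars then, without TBI replicate 2 and with no filter on low values. Both also lost it on the TPM scale and with only the 6 libraries compared. Aars, Eprs, Wars and Sars were not called, at differences of 0.47, 0.09, 0.18 and -0.11.

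Among the regulators only Atf5, a relative of ATF4, was called against control: 4.75, 4.98 and 5.33 FPKM in control and 9.42, 6.74 and 10.7 in TBI+DEIX, a log2 difference of 0.70 (SE 0.19, limma adjusted p 0.016). The TBI libraries held 7.60, 5.76 and 7.82 FPKM and the DEIX libraries 8.55, 5.47 and 5.66. The Atf5 call was lost on the TPM scale and without control replicate 1, control replicate 2 or TBI+DEIX replicate 3. Atf4 itself held 94.2 to 120.7 FPKM in control and 75.0 to 98.1 in DEIX. Irradiated libraries held 102.5 to 130.4 without DEIX and 102.5 to 104.6 with it. It was not called in the 5 contrasts tested here, and since ATF4 is set largely by translation its RNA does not measure its protein. Ddit3, the stress factor CHOP, lay between 6.65 and 13.7 FPKM, and Chac1, which degrades glutathione, between 2.33 and 7.33. A further identifier of Ddit3 was listed at 0 in all 12 libraries and was not used. Trib3, a pseudokinase that restrains ATF4, was low, at 0.727 to 0.854 FPKM in control and 0.731 to 1.09 in DEIX. Irradiated libraries held 1.20 to 1.59 without DEIX and 1.06 to 2.23 with it. Its difference in TBI+DEIX against control was 0.47 (limma adjusted p 0.0502). The log2(FPKM + 1) scale understates changes at such levels, and with a pseudocount of 0.1 Trib3 was called, at 0.80. Atf3 was called in TBI+DEIX against control on both TPM scales and without TBI+DEIX replicate 2 but not in the model used here, with 2.05 to 2.40 FPKM in control, 0.217, 1.97 and 1.61 in TBI+DEIX and 1.40 to 1.78 in DEIX. Cebpg, a C/EBP partner, Nupr1, Sesn2, a brake on mTORC1, and Eif4ebp1, which holds the cap-binding factor, were not called in those contrasts.

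**Figure D4:**
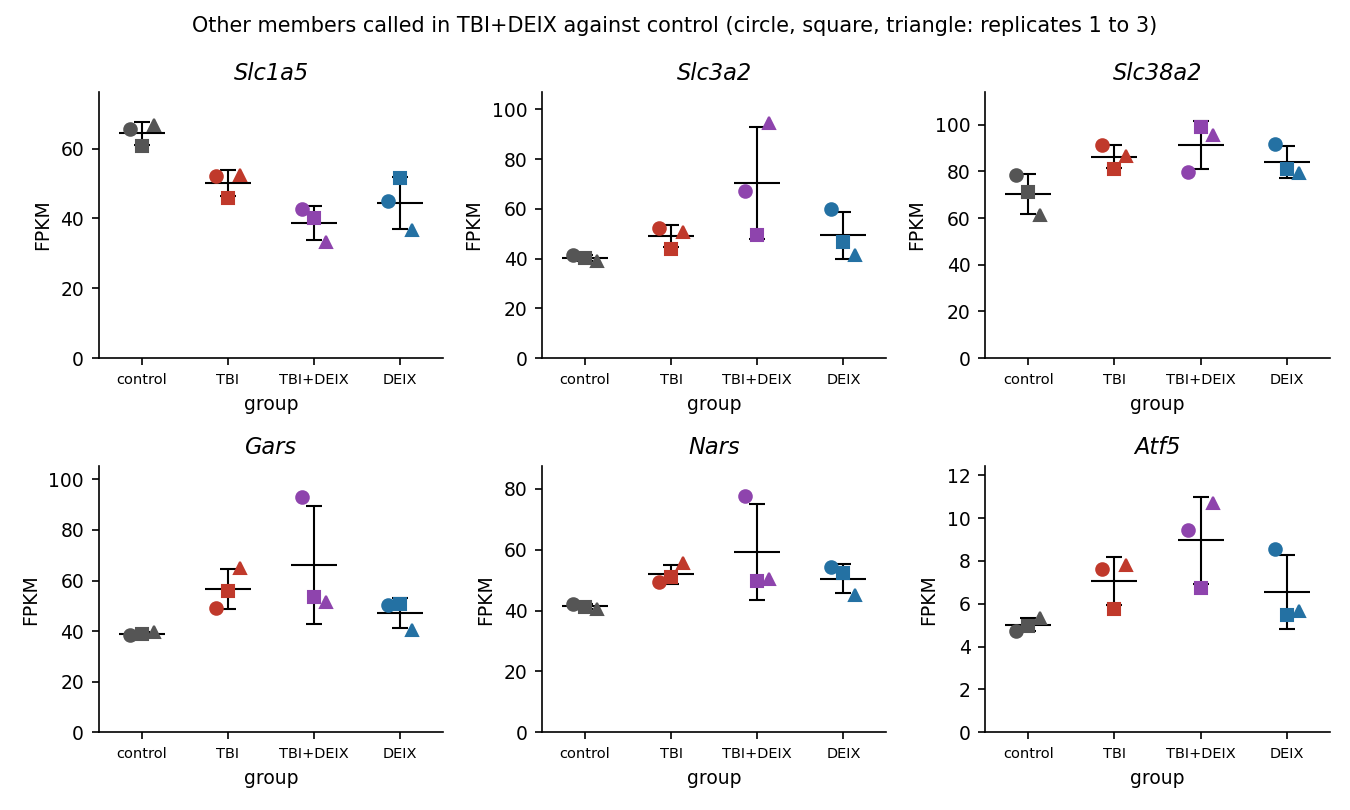
FPKM (vertical axes, each from 0) of the 6 members besides Asns that were called in TBI+DEIX against control, by group; coloured symbols are libraries and black bars the mean ± SD of 3. Slc1a5 is highest in control, and Gars is at 92.9 FPKM in TBI+DEIX replicate 1.

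The serine enzymes were not called in any contrast tested. Phgdh, which opens serine synthesis, held 28.9 to 35.7 FPKM in control and 23.3 to 32.3 in TBI+DEIX. Psat1, the next enzyme, held 31.9 to 32.9 in control and 26.8 to 39.7 in TBI+DEIX. Shmt2, which turns serine into glycine in mitochondria, averaged 32.2 ± 0.754 FPKM in control and 36.3 ± 8.52 in DEIX, against 47.9 ± 9.58 in TBI and 37.6 ± 4.29 in TBI+DEIX (SD, n = 3). Between TBI+DEIX and DEIX these 3 differed by 0.01, 0.04 and 0.07 in log2, with intervals that reached 0.40, 0.37 and 0.47. Aldh18a1 and Pycr1, enzymes of proline synthesis, were not called in the contrasts tested, and Pycr1 lay between 1.34 and 4.06 FPKM.

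Of the 34 members 4 did not pass the filter of at least 1 FPKM in at least 3 libraries and were not tested. Gpt2, an alanine transaminase, lay between 0.32 and 1.03 FPKM, and Stc2, a secreted glycoprotein, between 0.0191 and 0.119. Cth, which makes cysteine from cystathionine, was listed at 0 in 3 libraries and reached 0.426. Vldlr, a lipoprotein receptor, held 0.632, 0.405 and 0.712 FPKM in DEIX and 0.179 to 0.233 in control. Its TBI values were 0.0291 to 0.138 and its TBI+DEIX values 0.423, 0.0318 and 0.112, so only TBI+DEIX replicate 1 among irradiated libraries came within the DEIX range.

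The wider pathway was read from 6 lists of 77 tested genes: eIF2alpha kinases and phosphatase subunits (11), other reported ATF4 targets (11), endoplasmic reticulum chaperones and folding-stress genes (18), the other cytosolic tRNA synthetases (14), folate one-carbon enzymes (11) and other amino acid transporters (12). In TBI+DEIX against DEIX 0 of the 77 were called by limma, beside 2.57% of tested genes. An unadjusted p under 0.05 was found for 11 of them, beside 1780 of the 10994 tested genes. In DEIX against control 2 of 77 were called (2.6%, beside 7.24%), both higher (Ppp1r15b and Slc6a6). In TBI+DEIX against TBI 6 were called (7.79%, beside 8.10%), and in TBI+DEIX against control 13 (16.9%, beside 30.0%). The endoplasmic reticulum list had fitted differences above 0 in DEIX against control for 18 of 18 genes, with a median log2 difference of 0.37 beside 0.02 for all tested genes, and 0 of them were called by limma (7 at an unadjusted p under 0.05, beside 2718 of the 10994 tested genes). The libraries differed: 18 of the 18 genes lay above the highest control library in DEIX replicate 1 and 17 in replicate 3, but 9 in replicate 2. In the same contrast the plasma cell markers had a median of 0.64 with 0 of 6 called, and the monocyte and macrophage markers 0.63 with 3 of 10 called higher. Maturing neutrophil markers had a median of 0.61 with 1 of 11 called higher, and promyelocyte markers 0.19 with 0 of 5 called. The remaining marker lists had medians below 0. The part of these cell types in the endoplasmic reticulum result was not tested. The other synthetases had 12 of 14 above 0 in TBI+DEIX against DEIX, with a median of 0.09 and 0 called (1 at an unadjusted p under 0.05, limma).

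Ppp1r15b, a subunit that directs the phosphatase ending the eIF2alpha signal, rose in both DEIX contrasts. Its control libraries held 62.9, 62.0 and 63.1 FPKM and its DEIX libraries 100.4, 82.8 and 90.0. The TBI libraries held 94.2, 76.7 and 81.0, and the TBI+DEIX libraries 123.9, 105.3 and 113.1. The log2 difference was 0.53 in DEIX against control (limma adjusted p 0.0204) and 0.44 in TBI+DEIX against TBI (0.036). Its stress-induced counterpart Ppp1r15a ranged widely within groups, with 30.0, 29.2 and 60.4 FPKM in control and 98.1, 12.5 and 29.6 in TBI. DEIX libraries held 14.1, 58.4 and 15.2, and TBI+DEIX libraries 8.19, 10.7 and 6.88. It fell against control in TBI+DEIX (-2.03, limma adjusted p 0.042). Of the 12 other transporters 4 were called in TBI+DEIX against TBI, 2 lower and 2 higher (33.3%, beside 8.10% of tested genes). Slc43a1 and Slc38a5 fell by 1.81 and 1.72 (limma adjusted p 0.0304 and 0.032), while Slc6a6, the taurine carrier, rose by 0.65 (0.0131). Slc7a8 also lay higher, at 4.03, 4.47 and 4.18 FPKM in TBI+DEIX and 2.89, 2.81 and 2.81 in TBI. The markers of erythroid cells fell with Slc43a1 and Slc38a5, by a median of 1.55, with none at 0 in a library. Of these markers 4 of 10 were called, beside 8.10% of tested genes, and their part in the result was not tested.

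Marrow cell types also differed between irradiated and unirradiated libraries. In bulk RNA, fewer cells of a type and less RNA per cell cannot be told apart. Of 12 marker lists, 2 had summed FPKM in all 6 irradiated libraries below all 6 unirradiated ones. The stem and progenitor list (8 genes) summed to 62.1 to 63.6 in control, 46.2 to 65.4 in DEIX, 30.4 to 31.6 in TBI and 23.6 to 36.4 FPKM in TBI+DEIX. Of its 6 tested genes 3 were called lower in TBI+DEIX against DEIX, Cd34, Flt3 and Meis1, by 1.90, 1.42 and 0.77 (limma adjusted p 0.0154, 0.0191 and 0.0115), in a contrast that called 2.57% of tested genes. For the megakaryocyte and platelet list (7 genes) the sums were 109.1 to 166.8 in control, 61.0 to 102.5 in DEIX, 24.6 to 46.6 in TBI and 24.6 to 40.9 in TBI+DEIX. In TBI+DEIX against DEIX 3 of the 7 genes were called lower, beside the same 2.57%. No marker of either list was at 0 in a library. They moved opposite to Asns, and their part in the Asns result was not tested. Bone, stroma and endothelium markers (9 genes) leaned the same way as Asns in the 2 irradiation contrasts. Their sums were 58.8 to 70.9 FPKM in TBI against 41.3 to 48.7 in control, and 33.3 to 53.1 in TBI+DEIX against 19.4 to 40.9 in DEIX, which overlapped. Of their 6 tested genes 4 were higher and 2 lower in TBI+DEIX against DEIX. Among these 2 were called, both higher, Ctsk and Cxcl12, each by 1.62 (limma adjusted p 0.0186 and 0.0317). In DEIX against control 5 of the 6 lay below 0 (median -0.52), and in TBI+DEIX against TBI 6 of 6 (median -0.58). Bglap was at 0 in some libraries, and the part of this list in the Asns result was not tested.

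Erythroid and proliferation markers did not separate irradiated from unirradiated libraries. Erythroid sums were 360.9 to 905.0 in TBI and 114.0 to 281.9 in TBI+DEIX, groups in which Asns overlapped. They were 225.7 to 807.4 in DEIX and 400.2 to 466.6 in control. In TBI+DEIX against DEIX 9 of 10 erythroid markers were lower (median -0.71) and 0 were called. In TBI against control 10 of 10 were higher (median 0.42). Proliferation markers summed to 1298.2 to 1583.9 in TBI, above the 1178.7 to 1202.6 of control as Asns was, with 10 of 10 markers higher (median 0.28). Their sums were 970.4 to 1076.6 in TBI+DEIX and 983.9 to 1172.2 in DEIX, which overlapped. Between TBI+DEIX and DEIX, 4 of 10 monocyte and macrophage markers were called lower, beside 2.57% of tested genes called. Their sums were 330.4 to 628.9 against 1121.9 to 1202.0 FPKM, while TBI held 458.4 to 784.5 and control 635.1 to 699.6. The B lineage list (10 genes) summed to 394.6 to 475.8 in control, 61.6 to 97.5 in DEIX, where Asns was at 37.6 to 45.1, and 29.5 to 359.4 in TBI, where Asns was at 60.9 to 79.2 FPKM. The part of these cell types in the Asns result was not tested.

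**Figure D5:**
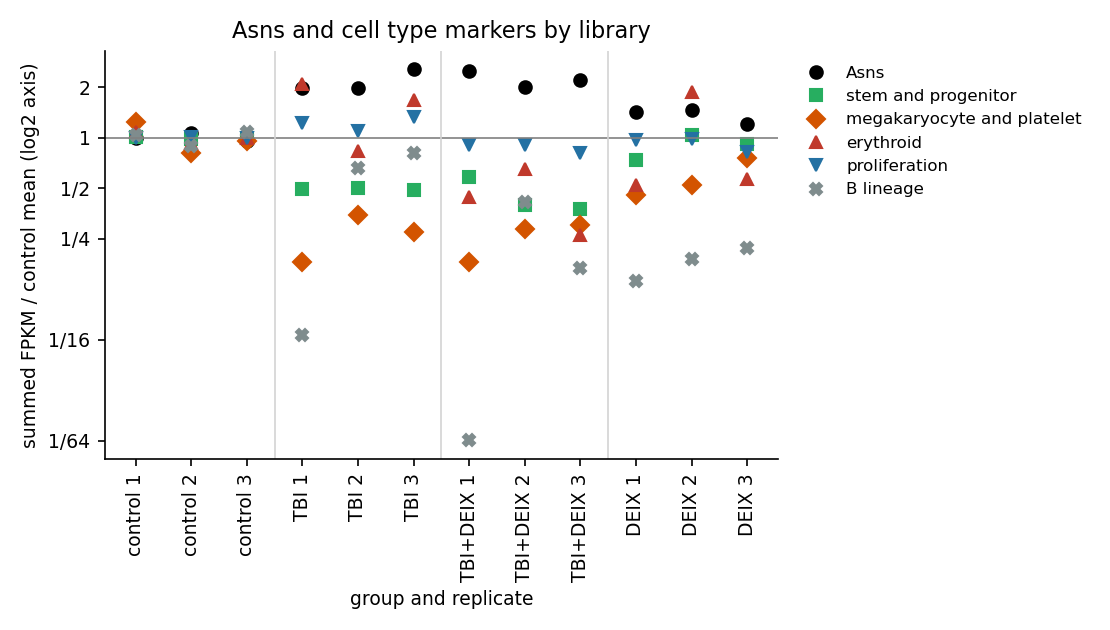
Asns and the summed FPKM of 5 marker lists in each library, divided by the control mean (log2 axis; the grey line is 1). Asns lies between 1.96 and 2.55 in the 6 irradiated libraries, where stem and progenitor markers and megakaryocyte markers lie below 1, and B lineage and erythroid markers scatter between libraries of the same group.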

How the data were processed

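RNA of whole bone marrow was sequenced from 12 libraries, 3 in each of 4 groups. The authors deposited FPKM values for 21853 genes, with no counts. STAR 2.6, Cufflinks 2.2.1 and the mm10 build are named per the submitters' processing notes. The annotation, the strand setting and the filters are not given in the sources used here, and all identifiers matched GENCODE vM21 symbols.

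Values were taken as log2(FPKM + 1) for the 10994 genes with at least 1 FPKM in at least 3 libraries. One limma model (version 3.58.1 in R 4.3.3, with an intensity trend) held 4 group means and gave 6 contrasts with 8 residual degrees of freedom and Benjamini-Hochberg adjusted p-values over all tested genes. The model was also run on simulated data, and the outcome is not reported here. The members, the pathway lists and the marker lists were chosen with earlier results of these data known. TBI against control was used to choose Asns, so its values carry no p here and its counts support nothing. Contrasts that share control or TBI libraries are not independent of each other.

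All 34 members are accounted for. Values in each library are given for Asns and for members called in at least 1 contrast; further members given by library, such as Mthfd2, Psph, Slc7a5 and Vldlr, were picked after their values were seen. Genes outside the members are named from those called, at most 5 a list, or from those listed at 0 in a library. Not every called gene of these lists is named. The alternatives were another pseudocount (0.1), no filter, a mean of at least 5 FPKM, TPM scaling, median ratio scaling, only the groups compared, a replicate block, array weights and leaving out each library. TPM scaling without S100a8, S100a9 and Ngp was added after seeing the data. One promoter stretch is not reported here.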

Additional observations from a re-analysis of the deposited data

How the results depend on the processing

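No log2 difference of a member changed sign where it was called. Counts of members called, out of 30, moved as follows, with the share of all tested genes called in brackets. Asns is among the 30, and nothing is read from its place in counts of contrasts that share control or TBI libraries. In TBI against control, the contrast that chose Asns, 1 became 11 with only the groups compared (12.9%) and 16 with array weights (38.4%), and nothing is read from these counts. For TBI+DEIX against DEIX 1 became 0 on the TPM scale (1.28%), 0 on that scale without 3 genes (2.47%), 0 with only the groups compared (0 genes), and 2 with array weights (8.62%). For TBI+DEIX against TBI 0 became 9 with array weights (40.8%). In DEIX against control 1 became 0 on both TPM scales (2.72% and 3.90%), 2 with only the groups compared (18.7%), 0 with the replicate block (5.82%) and 7 with array weights (41.0%). For TBI+DEIX against control 7 became 4 on both TPM scales (16.8% and 23.6%), 3 with only the groups compared (19.8%) and 13 with array weights (56.3%). Leaving out each library gave 1 to 7, 0 to 2, 0 to 6, 0 to 5 and 2 to 13 members in these contrasts in turn, and 0 in the interaction. The highest counts came without TBI+DEIX replicate 1, when 12.2%, 8.43%, 25.8%, 21.8% and 38.5% of all tested genes were called. The cause was not tested. Replicate numbers did not pair the libraries: of 18 same-numbered pairs 3 had a correlation of deviations over 0.1 (range -0.447 to 0.242). With the replicate block 1, 1, 0, 0 and 6 members were called in the 5 contrasts (3.44%, 1.64%, 4.31%, 5.82% and 27.3% of all tested genes) and 0 in the interaction (0.182%), and Asns kept its call in TBI+DEIX against DEIX (limma adjusted p 0.0456). Depth is not given, so no counting error could be set beside low members such as Trib3, Cth and Stc2.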

Other observations

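Libraries of the same group differed in where the members stood. TBI replicate 3 held the highest of the 12 values for 9 of 30 tested members and the lowest for 1 (33.3%, beside 19.6% of all tested genes). DEIX replicate 3 held the lowest value for 9 members and the highest for none (30.0%, beside 10.9%). Control replicate 3 held 4 highest and 5 lowest values (30.0%, beside 26.9%). The median of the members' log2 values, each centred on its mean over the 12 libraries, was 0.21 in TBI replicate 3 and -0.28 in DEIX replicate 3.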
